A study of Mus musculus with 4 samples.

Results

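Macrophages of the pancreatic islet, and the machinery by which such cells present antigen, were followed through 10 genes: Cd74, H2-Aa, H2-Ab1, Ctss, C1qa, Cd68, Csf1r, Adgre1, Lyz2 and Cd14. The genes were chosen by name as macrophage and major histocompatibility complex (MHC) class II genes. All 10 were found among the 24940 genes of the deposited table, and 9 of them passed the filter on low values that left 13531 genes to test; Adgre1 did not. RNA was sequenced from islets of male mice aged 3 to 4 months on a low-fat chow. Non-transgenic mice gave 2 control libraries (replicates 1 and 2) and Tafazzin-knockdown mice gave the other two (replicates 3 and 4), each library holding about 300 islets from a pool of 2 to 3 mice. Tafazzin is the mitochondrial transacylase that remodels cardiolipin. The construct behind the knockdown is not given in the sources used here, and since the controls carried no transgene, an effect of the transgene and an effect of Tafazzin depletion cannot be told apart.

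Resident macrophages are the main myeloid cells of a healthy islet, where they lie close to beta cells and blood vessels and sample granule contents and blood. They depend on signalling through the CSF1 receptor. Like dendritic cells and B cells they show peptides to CD4 T cells on MHC class II molecules, which are dimers of an alpha and a beta chain. The invariant chain, encoded by Cd74, escorts the new dimer to endosomes, where cathepsin S (Ctss) trims the chain so that peptide can bind. C1qa encodes a chain of C1q, the recognition part of classical complement, which tissue macrophages make. Cd14 encodes the lipopolysaccharide co-receptor that hands its ligand to TLR4, and Lyz2 encodes the macrophage form of lysozyme.

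Promoter sequences are shown for H2-Aa, as a class II gene, and for the neighbouring lysozyme genes Lyz2 and Lyz1, because Lyz2 was the member with the largest difference between groups while its close copy was hardly read at all. They come from RefSeq on GRCm38.p6, run 5′ to 3′ on the strand of the gene from 250 bases before the RefSeq start, and stop where a GENCODE M21 exon begins. For H2-Aa and Lyz1 that leaves all 250 bases. For Lyz2, whose GENCODE exon begins further upstream, it leaves 201 bases, and the bases next to the RefSeq start were neither printed nor searched. The RefSeq table can place a start elsewhere than the deposited table does, as for H2-Aa. H2-Aa lies at chr17:34287824-34288073 (minus strand), Lyz2 at chr10:117282322-117282522 (minus strand) and Lyz1 at chr10:117292869-117293118 (minus strand). Capitals mark matches to a searched motif.
H2-Aa: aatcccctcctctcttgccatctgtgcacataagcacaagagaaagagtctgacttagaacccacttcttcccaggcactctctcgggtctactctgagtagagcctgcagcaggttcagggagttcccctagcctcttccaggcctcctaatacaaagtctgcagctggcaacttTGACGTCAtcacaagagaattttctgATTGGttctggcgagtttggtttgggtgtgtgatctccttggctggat
Lyz2: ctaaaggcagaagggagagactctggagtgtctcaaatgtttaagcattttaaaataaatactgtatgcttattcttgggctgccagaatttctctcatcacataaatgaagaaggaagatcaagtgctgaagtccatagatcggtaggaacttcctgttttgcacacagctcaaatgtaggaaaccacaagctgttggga
Lyz1: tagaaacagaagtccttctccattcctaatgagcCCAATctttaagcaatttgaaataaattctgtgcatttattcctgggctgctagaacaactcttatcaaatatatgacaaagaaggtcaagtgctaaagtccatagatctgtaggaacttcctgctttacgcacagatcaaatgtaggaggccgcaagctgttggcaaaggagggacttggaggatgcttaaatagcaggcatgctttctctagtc
The letters searched on both strands were CCAAT, the box bound by NF-Y, and GAGGAAG, a core bound by the myeloid factor PU.1. Also searched were AGCAAC, taken as a core of the class II X box, and TGACGTCA, the cyclic AMP response element, which reads the same on both strands. None of these overlapped another in the printed windows. The last was added after the H2-Aa promoter had been read. Of 32851 promoters, CCAAT was held by 33.8%, GAGGAAG by 10.6%, AGCAAC by 12.2% and TGACGTCA by 1.55%. The shares are over whole windows of 250 bases. H2-Aa held TGACGTCA 74 bases and ATTGG (the first motif on the opposite strand) 48 bases before the start, Lyz1 held CCAAT 216 bases before it, and the shorter Lyz2 window, which is not like for like with the others, held none of the 4. A match is a run of letters and no evidence of binding, and a window without a match says only that these letters are not in it.

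A value, given in units, is the number of reads of a gene for every 10000000 reads in its library, with no scaling by gene length. Library totals ran from 68823160 to 81073502 reads, so that 1 read was worth 0.123 to 0.145 units, and most reads were counted in pairs. The 3 read pairs below which a gene cannot be told from 0 corresponded to 0.740 to 0.872 units. The beta cell gene Ins2 was read at 46108 to 58452 units and the alpha cell gene Gcg at 5422 to 6652 units, so that the libraries carried the labelled tissue. Taz, the gene of Tafazzin, was read at 23.1 and 15.4 units in control islets and at 13.8 and 12.7 units in knockdown islets, a log2 fold change of -0.65 ± 0.25 (SE) that was not called (adjusted p = 0.529, limma with Benjamini-Hochberg adjustment). The knockdown libraries are therefore grouped by their label. Log2 fold changes are of log2(value + 1), knockdown over control, given relative to the median of all tested genes, which lay at 0.17. They understate the change of low genes. With 2 libraries against 2 the smallest two-sided p that a permutation test can give is 0.333, so tests rest on limma's fit across all genes.

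Lyz2 and Cd14 were the only members called, both higher in the knockdown islets. The class II chains, the invariant chain, cathepsin S, C1qa, Cd68 and Csf1r were not called in either direction. Summed over Cd74, H2-Aa and H2-Ab1, the class II genes stood at 42.3 and 33.2 units in control islets and at 41.5 and 31.8 units in knockdown islets, a ratio of group means of 0.971. The 8 members other than Lyz2 and Cd14 summed to 77.7 and 62.5 units in control islets and to 75.9 and 63.1 in knockdown islets, a ratio of 0.991. So 2 of the 9 tested members were called higher and 0 lower by limma, beside 2.49% of all tested genes called higher and 0.0443% called lower. At an unadjusted p under 0.05 the count of members was also 2, beside 1400 of all 13531 tested genes. The members' median log2 fold change was -0.05, with 3 above and 6 below the median of all genes. Lyz2 was the only member called by limma after median-ratio scaling (1.12% of all genes called higher), by edgeR on recovered reads (1.24%) and by DESeq2 on them (0.613%). In bulk RNA fewer cells of a type and less RNA per cell cannot be told apart.

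**Figure D1:**
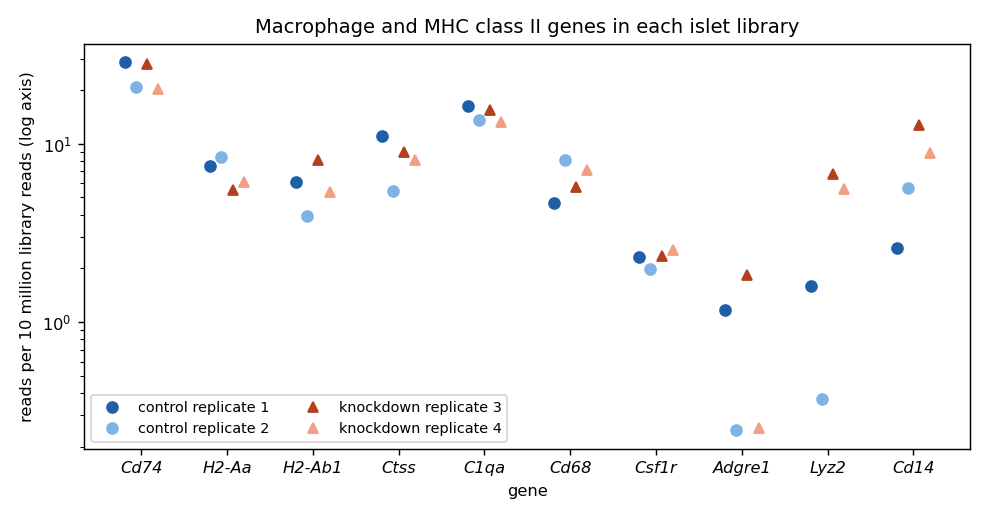
Value of each of the 10 genes in each library, in units (reads for every 10000000 reads in the library) on a log axis, with 1 point per library. Lyz2 and Cd14 have both knockdown libraries above both controls, whereas the groups of Cd74, C1qa, Cd68, Ctss, H2-Ab1 and Adgre1 overlap.

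**Figure D2:**
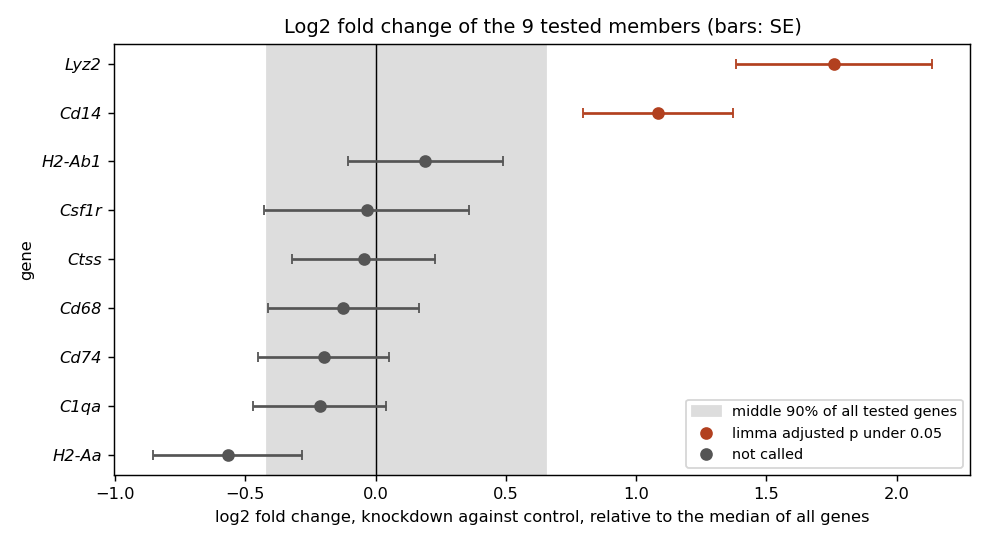
Log2 fold change of the 9 tested genes, knockdown over control, relative to the median of all tested genes, with bars of 1 SE from the limma fit. Lyz2 (1.76) and Cd14 (1.08) stand apart from the other 7, which lie between -0.57 and 0.19.

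Among the class II genes, Cd74 (NM_001042605; mm10 chromosome 18, 60803849 to 60812652, plus strand, 9 exons) had the most reads. It was read at 28.6 and 20.8 units in control islets (replicates 1 and 2) and at 27.9 and 20.3 units in knockdown islets (replicates 3 and 4). The groups overlapped nearly in full: control replicate 1 paired with knockdown replicate 3 as the higher libraries. The means were 24.7 ± 5.5 (SD, n = 2) and 24.1 ± 5.35 units (SD, n = 2), and the log2 fold change was -0.20 ± 0.25 (adjusted p = 0.988, limma). The pooled read ratio was 0.986 with an exact 95% interval of 0.800 to 1.22, which covers counting error only, as do all such intervals here. The span of Cd74 also holds the microRNA Mir5107.

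H2-Aa (NM_010378; chromosome 17, 34282751 to 34287771, minus strand, 5 exons), the alpha chain of I-A, was read at 7.56 and 8.39 units in control islets and at 5.48 and 6.10 units in knockdown islets. Both knockdown libraries lay below both controls, as for 4.49% of all tested genes, and H2-Aa was the only member of which this held. The log2 fold change was -0.57 ± 0.29 and was not called by limma (adjusted p = 0.732) or edgeR (adjusted p = 0.502). The pooled read ratio was 0.724, with an interval of 0.481 to 1.08. That ratio is scaled by library totals alone and is not set against the median of all genes, so 1 is not its value for the median gene. H2-Ab1 (NM_207105; chromosome 17, 34263227 to 34269418, plus strand, 6 exons), the beta chain of the same dimer, did not share that order. It was read at 6.10 and 3.95 units in control islets and at 8.09 and 5.34 units in knockdown islets, with overlapping groups and a log2 fold change of 0.19 ± 0.30 (adjusted p = 0.809, limma). The ratio of H2-Aa to H2-Ab1 was 1.24 and 2.12 in control islets and 0.677 and 1.14 in knockdown islets, a difference that was not tested.

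Ctss (NM_001267695; chromosome 3, 95526786 to 95556405, plus strand, 8 exons) was read at 11.0 and 5.43 units in control islets and at 9.0 and 8.14 units in knockdown islets. The controls enclosed both knockdown libraries, and the log2 fold change was -0.05 ± 0.28 (adjusted p = 0.960, limma). Of the 31 genes of a class II pathway list, 22 were tested and 0 were called in either direction by limma, with 0 at an unadjusted p under 0.05 and a median log2 fold change of -0.04. Over all tested genes limma called 2.49% higher and 0.0443% lower, and 1400 of 13531 had an unadjusted p under 0.05. H2-Eb1, the beta chain of I-E, was read at 8.14 and 3.95 units in control islets and at 7.30 and 7.12 in knockdown islets. H2-DMa, a chain of the peptide-loading catalyst, stood at 6.68 and 5.06 against 5.48 and 5.85 units. Ciita, the master activator of class II genes, was at the counting limit, with 0.872 and 0 units in control islets and 0.261 and 0.254 in knockdown islets. The list's member with the highest mean was cathepsin B (Ctsb), at 334 and 265 units in control islets and 380 and 354 units in knockdown islets, in a span that overlaps Fdft1. Its member with the largest test statistic was Cd83, a surface protein of activated antigen-presenting cells, at 0.291 and 0.987 against 2.09 and 1.53 units (adjusted p = 0.633, limma).

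C1qa (NM_007572; chromosome 4, 136895916 to 136898844, minus strand, 3 exons) was read at 16.3 and 13.6 units in control islets and at 15.5 and 13.2 units in knockdown islets, with overlapping groups, a log2 fold change of -0.21 ± 0.26 (adjusted p = 0.983, limma) and a pooled read ratio of 0.969 (0.742 to 1.28). The other chains of C1q, C1qb and C1qc, were not called either. C1qb was read at 3.34 and 2.71 against 3.78 and 3.18 units, and C1qc at 3.20 and 2.96 against 1.83 and 3.82 units. The sum of the 3 chains was 22.8 and 19.2 units in control islets and 21.1 and 20.2 units in knockdown islets, a ratio of 0.983.

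Of 20 listed genes of classical complement, 14 were tested, 1 was called higher and 0 lower by limma, and the median log2 fold change was -0.11. The called gene was C3, the central component that all complement pathways cleave, which many cell types besides macrophages make. It rose from 8.14 and 10.1 units in the controls to 31.8 and 16.3 units in knockdown islets, a log2 fold change of 1.08 ± 0.26 (adjusted p = 1.75e-04, limma). Without knockdown replicate 3 its log2 fold change was 0.62 and the call was lost (adjusted p = 1.0, limma), and DESeq2 did not call it (adjusted p = 0.0981). Serping1, the C1 inhibitor and the list's gene with the highest mean, was read at 83.4 and 81.2 against 119 and 91.1 units and was not called.

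Cd68 (NM_001291058; chromosome 11, 69664213 to 69666170, minus strand, 6 exons), a lysosomal membrane glycoprotein of macrophages, was read at 4.65 and 8.14 units in control islets and at 5.74 and 7.12 units in knockdown islets. The controls enclosed the knockdown libraries, and the means were 6.40 ± 2.47 and 6.43 ± 0.979 units (SD, n = 2 each), with a log2 fold change of -0.12 ± 0.29 (adjusted p = 0.988, limma). Csf1r (NM_001037859; chromosome 18, 61105572 to 61131139, plus strand, 22 exons), the receptor on which macrophage survival depends, was read at 2.33 and 1.97 units in control islets and at 2.35 and 2.54 in knockdown islets. Both knockdown libraries lay above both controls, but the nearest libraries of the groups differed by less than the worth of 1 read, and the log2 fold change was -0.03 ± 0.39 (adjusted p = 0.969, limma). Its span also holds Mir6983. Knockdown libraries lay above both controls for 3 of the 10 members (Lyz2, Cd14 and Csf1r) and for 34.9% of all tested genes. Adgre1 (NM_010130; chromosome 17, 57358686 to 57483529, plus strand, 22 exons), which encodes the F4/80 antigen, was read at 1.16 and 0.247 units in control islets and at 1.83 and 0.254 in knockdown islets. Its reads numbered 8, 2, 14 and 2, so that a difference was not detectable at this depth.

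Of 38 macrophage identity genes, 37 were in the table and 15 were tested; 2 were called higher by limma, Lyz2 and Cd14 themselves, and 0 lower, with a median log2 fold change of 0.15. Marco and Timd4, receptors of other tissue macrophages, were at 0 in every library. Some general macrophage markers were also near the counting limit, but not all. Mpeg1 was read at 12.2 and 8.14 units in control islets and at 12.0 and 13.5 in knockdown islets, with overlapping groups. Of the 37 genes, 13 stayed below 1 unit in every library, Itgam and Aif1 among them. On the CSF1 receptor axis, 8 of 9 genes were tested and 1 was called higher, the ligand gene Csf1. Csf1 rose from 21.8 and 23.7 units to 54.8 and 36.6 units, a log2 fold change of 0.78 ± 0.25 (adjusted p = 0.00819, limma; adjusted p = 0.0181, edgeR). The call was lost without knockdown replicate 3 (0.51, adjusted p = 1.0, limma) or without knockdown replicate 4 (1.05, adjusted p = 0.0962, limma), and DESeq2 did not make it (adjusted p = 0.126). The other ligand, Il34, was read at 3.05 and 1.23 against 6.78 and 2.04 units with overlapping groups, and Grb2, the adaptor with the highest mean, at 46.8 and 38.0 against 41.9 and 42.4 units. Of 22 lysosomal genes all were tested and 0 called by limma, with 2 at an unadjusted p under 0.05, where 1400 of all 13531 genes were, and a median of 0.04. Cathepsin H (Ctsh) had their largest test statistic, at 3.49 and 2.96 against 9.65 and 3.31 units.

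Lyz2 (NM_017372; chromosome 10, 117277541 to 117282272, minus strand, 4 exons) rose in both knockdown libraries. It was read at 1.6 and 0.370 units in control islets, which is 11 and 3 reads, and at 6.78 and 5.60 units in knockdown islets, which is 52 and 44 reads. The groups did not overlap, and the lower knockdown library lay above the higher control by more than the spread within either group, with means of 0.984 ± 0.868 and 6.19 ± 0.838 units (SD, n = 2 each). The log2 fold change was 1.76 ± 0.37 (adjusted p = 4.63e-05, limma; adjusted p = 0.0145, edgeR; adjusted p = 0.0381, DESeq2). The pooled read ratio was 6.62 with an interval of 2.98 to 17.3, with 14 reads in the controls together. Lyz2 was not called without knockdown replicate 3 (log2 fold change 1.65, adjusted p = 0.0673, limma), without the filter on low values (1.77, adjusted p = 0.0867, limma), or by DESeq2 on read pairs (adjusted p = 0.437). Lyz1, the neighbouring lysozyme gene of Paneth cells whose promoter is printed beside that of Lyz2, was at 0 in 3 libraries and at 0.127 units in knockdown replicate 4. Of 1267 windows of 50 bases in the Lyz2 transcript, 195 (15.4%) also occur in that of Lyz1, and how reads in them were assigned is not given in the sources used here.

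Cd14 (NM_009841; chromosome 18, 36725064 to 36726815, minus strand, 2 exons) was read at 2.62 and 5.67 units in control islets and rose to 12.8 and 8.90 units in knockdown islets. The groups did not overlap, although the controls differed from each other by over 2-fold, and the means were 4.14 ± 2.16 and 10.8 ± 2.74 units (SD, n = 2 each). The log2 fold change was 1.08 ± 0.29 (adjusted p = 0.00133, limma), and the pooled read ratio was 2.53 (1.67 to 3.94). This call rested on fewer settings than that of Lyz2: Cd14 was not called by edgeR (adjusted p = 0.159), by DESeq2 (adjusted p = 0.644) or by limma after median-ratio scaling (adjusted p = 0.114). It was also lost without control replicate 1 (log2 fold change 0.51, adjusted p = 0.0754, limma) and without knockdown replicate 3 (0.85, adjusted p = 0.600, limma).

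Of 15 genes of the CD14 and TLR4 axis, 13 were tested; 1 was called higher, Cd14 itself, and 0 lower by limma, with 3 at an unadjusted p under 0.05 and a median log2 fold change of 0.32. Tlr4 was read at 1.74 and 1.48 against 4.43 and 1.78 units. Lbp, the plasma protein that delivers lipopolysaccharide to CD14, stood at 0.291 and 0.247 units in control islets. That is 2 reads in each, below the 3 read pairs needed to tell a gene from 0. In knockdown islets Lbp stood at 2.87 and 2.54 units, and it was not called (adjusted p = 0.0509, limma). Cd36, a scavenger receptor that endothelial cells also carry, stood at 2.62 and 1.73 against 7.04 and 4.07 units (adjusted p = 0.0874, limma). Irak1, the kinase with the highest mean of the list, was read at 130 and 113 against 117 and 131 units.

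**Figure D3:**
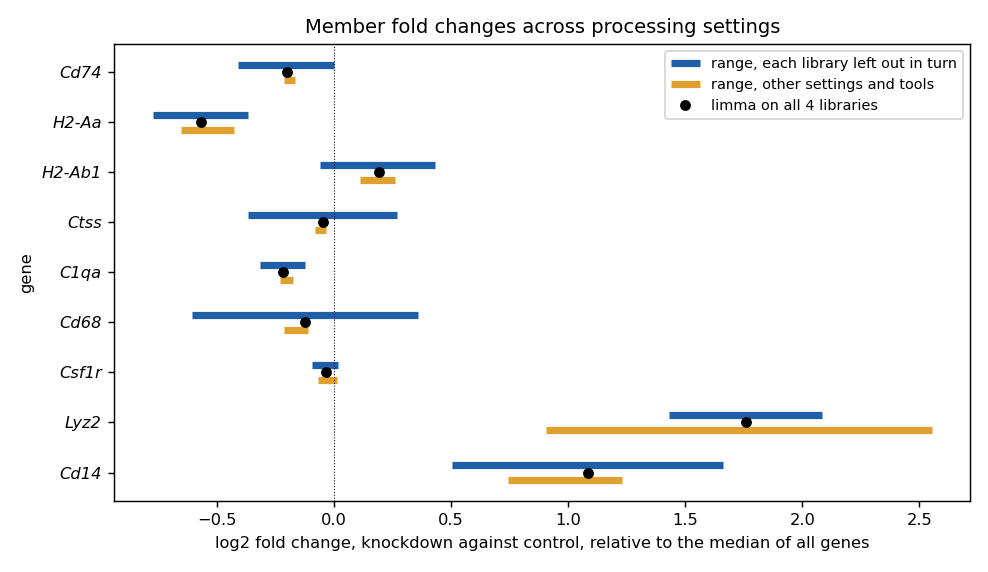
Log2 fold change of each tested gene relative to the median of all tested genes under the main setting (point) and its range over the other settings and over the fits that leave out 1 library (lines). Lyz2 stays between 0.91 and 2.55 and Cd14 between 0.51 and 1.66, while the ranges of Cd68, Csf1r, Cd74, H2-Ab1 and Ctss cross 0.

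Levels of the members were compared per kilobase, as means over the 4 libraries. Genes named for the highest mean of a list, or for the most reads, were ranked without scaling by length. Per kilobase of summed exons, Cd74 was the highest at 17.3 units, followed by C1qa at 14.1, and the ranges of this pair overlapped. Both lay above Ctss, at 6.20 units per kilobase of exon, whose range over libraries did not reach that of C1qa. From Ctss through H2-Aa (6.10), Cd68 (5.21), H2-Ab1 (4.84), Cd14 (4.57) and Lyz2 (2.73) to Csf1r (0.594) and Adgre1 (0.269), every neighbouring pair overlapped in range. The order was different per kilobase of gene span, introns included, where C1qa led at 5.0, then Cd14 at 4.28, Cd68 at 3.28 and Cd74 at 2.78 units, each overlapping the next in range. The places of Cd14 and Lyz2 average groups that differ. Per kilobase of span Cd14 stood at 1.49 and 3.24 units in control islets, below C1qa at 5.56 and 4.63. In knockdown islets it stood at 7.30 and 5.08 units against 5.30 and 4.52 for C1qa, above it in each library. Long genes with much intron, such as Adgre1 at 0.00699 units per kilobase of span, come out low on that scale.

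The genes with profiles most like that of Cd74 across the 4 libraries, by distance between centred log2(value + 1) profiles, were Toe1 (0.0148), Cdyl2 (0.0196) and Trappc6a (0.0266), where the median gene lay at 0.503. Those nearest to Lyz2 were Onecut2 (0.224), Vtcn1 (0.361) and A630023A22Rik (0.373), where the median gene lay at 1.85. Onecut2, a transcription factor of the pancreatic epithelium, was read at 4.65 and 1.73 units in control islets and at 16.6 and 11.2 in knockdown islets. Vtcn1, a B7 family protein of epithelia, stood at 0.581 and 0 against 4.56 and 2.54 units. With 4 libraries such distances describe these profiles and nothing more. The span of Toe1 overlaps Tesk2, and that of A630023A22Rik overlaps Antxrl and Anxa8.

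Most markers of other leukocytes were low, as were the members Csf1r and Adgre1. Of 12 neutrophil genes 0 passed the filter, their sum was 0 and 0.247 units in control islets and 1.57 and 0.889 in knockdown islets, and S100a8, Ly6g, Mpo and Elane were at 0 throughout. Among 9 B cell genes, 8 were in the table and 1 was tested, and Ms4a1 and Pax5 were at 0. Among 11 T cell genes, 10 were in the table and 1 was tested, and Cd3d, Cd4 and Cd8b1 were at 0. Among 7 mast cell genes only Kit was tested, and Cpa3 and Fcer1a were at 0. The tested genes were Cd79a, at 0.872 and 0.740 against 2.09 and 1.15 units, Cd247, in a span that overlaps Pou2f1, at 10.3 and 8.39 against 11.5 and 9.41 units, and Kit, at 8.14 and 3.95 against 5.22 and 6.87 units. Of 12 dendritic cell genes 3 were tested and 1 called higher, Fscn1, an actin-bundling protein also made by stromal cells, which rose from 8.43 and 7.65 to 24.5 and 17.9 units (1.12 ± 0.26, adjusted p = 9.92e-05, limma). Without knockdown replicate 3 Fscn1 was not called (0.91, adjusted p = 0.358, limma). Batf3, Cd209a, Clec10a and Siglech were at 0. The pan-leukocyte gene Ptprc, which encodes CD45, was read at 2.03 and 0.987 units in control islets and at 2.09 and 1.02 in knockdown islets. The 12 pan-leukocyte genes summed to 21.5 and 17.0 units in control islets and to 28.2 and 24.0 in knockdown islets. Of the 7 tested, 0 were called by limma and 0 had an unadjusted p under 0.05, with a median log2 fold change of 0.21. Over all tested genes limma called 2.49% higher, and 1400 of 13531 had an unadjusted p under 0.05. Lcp1, the pan-leukocyte gene with the highest mean, was read at 4.36 and 4.19 against 5.74 and 6.36 units.

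Markers of non-immune cells moved between the groups beside Lyz2, Cd14, C3 and Csf1. Summed stellate cell and fibroblast markers were 153 and 156 units in control islets and 508 and 380 in knockdown islets, with 13 of 19 tested genes called higher, Sparc among them. Endothelial markers summed to 215 and 180 against 417 and 320 units, with 6 of 15 called higher, Eng among them, in a span that overlaps Fpgs. Duct markers summed to 1334 and 1314 against 2278 and 1602 units, with 4 of 14 called higher, Spp1 among them, a gene that macrophages can also express. Of all tested genes limma called 2.49% higher. Without knockdown replicate 3 fewer genes were called, in these lists as over all genes. The stellate and fibroblast median log2 fold change was then 1.10, against 1.19 with all 4 libraries. The endothelial median was 0.40 against 0.59, and the duct median 0.064 against 0.34. Without control replicate 1 the endothelial median was 0.64, the stellate and fibroblast median 1.01 and the duct median 0.13. DESeq2 called 9, 3 and 0 genes of the lists higher, in the same order, beside 0.613% of all genes. With edgeR the counts were 11, 4 and 2, beside 1.24% of all genes. Without the filter on low values limma called 0 of each. Sparc, Eng and Spp1 were each not called by limma without knockdown replicate 3 or without knockdown replicate 4, and DESeq2 did not call Spp1 (adjusted p = 0.917). The part of these cells in the values of Lyz2, Cd14, C3 and Csf1 was not tested. Red blood cell markers, led by Hbb-bs, summed to 5.52 and 7.65 against 24.8 and 8.39 units, and 0 of the 5 tested were called by limma, with 2 at an unadjusted p under 0.05. These 2 were Hbb-bs and Hbb-b1, which overlap in span and held equal values in every library. Hba-a1 and Hba-a2 also held equal values. Neither pair gives 2 separate results, and the sum includes the shared value of each pair for both genes. Acinar markers, led by Ctrb1, summed to 3337 and 6883 against 5812 and 2745 units, with overlapping groups.

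**Figure D4:**
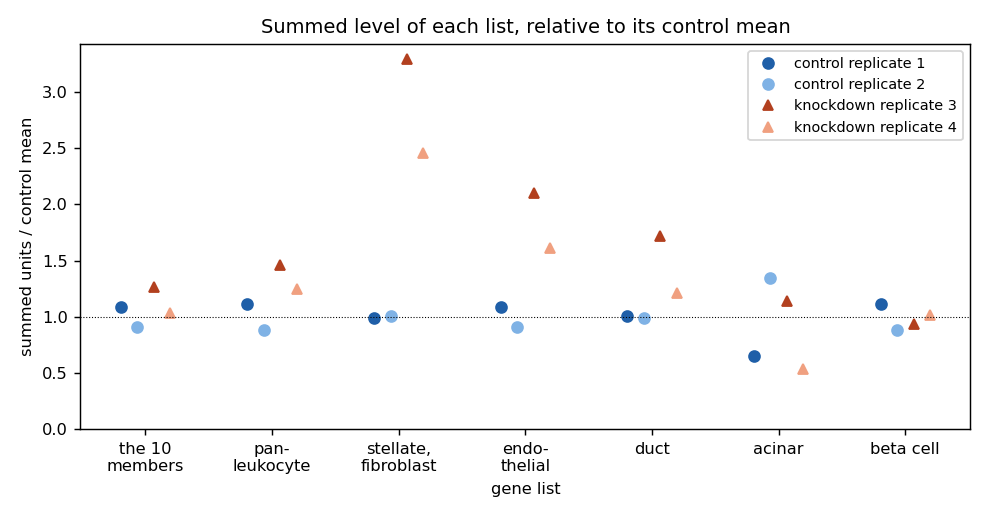
Summed markers per library relative to the mean of the controls for the 10 genes and for lists of other cells, with 1 point per library. The stellate and fibroblast sum reaches 3.29 and 2.46 in knockdown islets, whereas the sum of the 10 genes reaches 1.27 and 1.03.

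**Figure D5:**
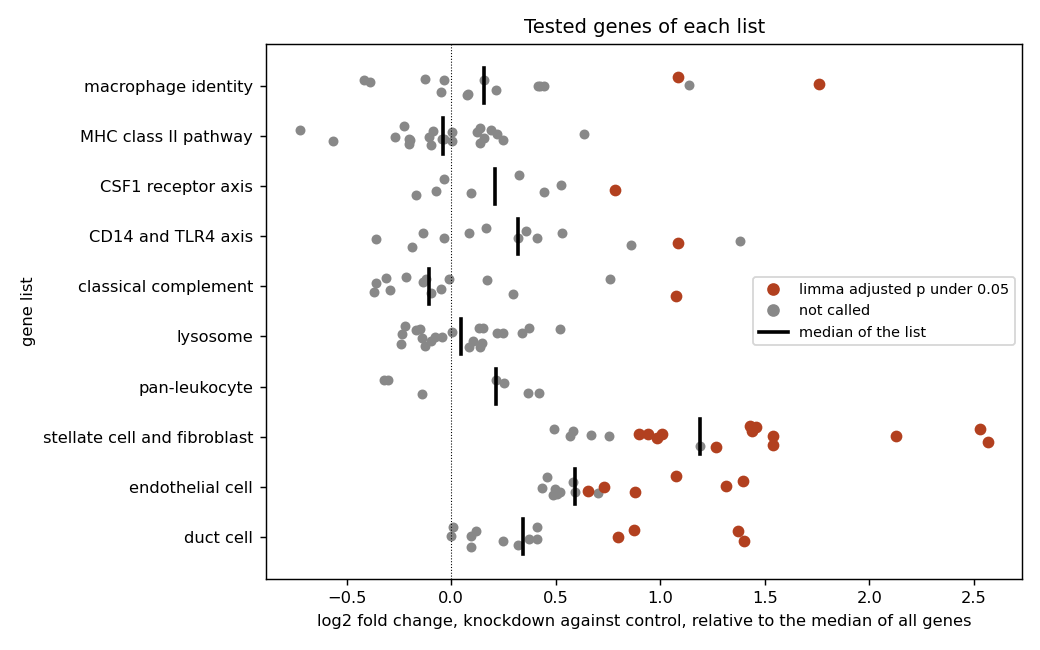
Log2 fold change of every tested gene of each list relative to the median of all tested genes, 1 point per gene, with called genes marked. The class II list is centred near 0 with 0 called genes, while all 19 stellate and fibroblast genes lie above 0. Of all tested genes limma called 2.49% higher and 0.0443% lower.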

How the data were processed

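Gene expression was measured in islets of 2 control and 2 Tafazzin-knockdown libraries. Per the submitters' processing notes, STAR 2.5.1b, HOMER 4.9, edgeR and the build mm10 were used, in roles these notes do not give. The authors deposited 1 table whose name announces FPKM, but whose deposited signal is the number of reads for every 10000000 reads in the library. In each library 100% of values were whole reads, within 0.01 reads, and edgeR on these recovered reads called 168 genes higher and 18 lower. The counted region is not given in the sources used here. The length column is the genomic span of 99.2% of genes, and 20 of 43 opposite-strand pairs overlapping by at least 50% were within 1.2-fold, so that reads appear to be counted over gene bodies without strand. Of nonzero counts 73.4% to 75.1% were even, so counting intervals use read pairs.

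The comparison was fitted with limma 3.58.1 (R 4.3.3), allowing for a mean-variance trend, on log2(value + 1) of genes at least 200 bases long whose mean reached 1 unit, two-sided, at an adjusted p of 0.05. The prior degrees of freedom were infinite, so calls can overlap between groups, as 4 higher and 3 lower calls did. P-values test the unshifted change. edgeR 4.0.16, DESeq2 1.42.0, other scalings, filters and pseudocounts, and leaving out each library were alternatives. The scripts were tested on simulated data. Pools are separate samples of a group by their labels. With the infinite prior, the SE and p-values of the reported fit rest on the spread between pools fitted over genes of like level. They do not measure the spread of a gene between its own pools.

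The members, lists and naming rule were chosen with earlier results of these data known. Named genes are the members and Taz; of each myeloid, class II, CSF1, CD14, complement or lysosome list the called genes, the gene with the largest test statistic and that with the highest mean; of other cell types the tested gene with the highest mean; and the 3 genes nearest to Cd74 and to Lyz2. Chosen after their values were seen were Lyz1, H2-Eb1, H2-DMa, Ciita, C1qb, C1qc, Il34, Tlr4, Lbp, Cd36, Ptprc, Itgam, Aif1, Mpeg1, Hbb-b1, Hba-a1, Hba-a2 and the markers at 0. Of the genes the rule names, 2 are not reported here. Exon lengths and overlaps come from GENCODE M21. Promoters of H2-Ab1, C1qa and Adgre1 were not used here.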

Additional observations from a re-analysis of the deposited data

How the results depend on the processing

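Lyz2 and Cd14 kept their direction under every alternative run, and no member was called lower under any. Members called higher, 2 in the reported fit, numbered 1 under median-ratio scaling, edgeR, DESeq2 and edgeR on read pairs, 0 under DESeq2 on read pairs and 0 without the filter, and 0 to 2 when a library was left out (0 without knockdown replicate 3, 1 without control replicate 1). Of all genes, 337 were higher. This became 151 under median-ratio scaling, 528 without the trend, 168 with edgeR, 83 with DESeq2, 161 with edgeR on pairs, 35 with DESeq2 on pairs, and 28 to 1266 without 1 library. The 6 lower genes became 21, 16, 18, 11, 18 and 5 in the same order, and 3 to 59 without 1 library. Without the filter limma called 0 higher and 0 lower, with 1484 of 18054 genes at an unadjusted p under 0.05. The analyses on read pairs were chosen after seeing the data. The cause of these shifts was not tested.

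Signs turned only in genes not called in the reported fit. Csf1r was 0.0084 under median-ratio scaling, 0.0128 with edgeR and DESeq2, and 0.0131 and 0.0129 on read pairs; Gcg was -0.0133 and -0.0136 with edgeR and DESeq2, and -0.0132 and -0.0135 on pairs. With 1 library left out, log2 fold changes ran from -0.61 to 0.36 for Cd68, -0.0926 to 0.0201 for Csf1r, -0.41 to 0.0019 for Cd74, -0.0604 to 0.43 for H2-Ab1, -0.36 to 0.27 for Ctss, -0.013 to 0.35 for Serping1, -0.13 to 1.15 for Ctsh, -0.14 to 0.093 for Cd247, -0.42 to 0.20 for Kit, -1.07 to 0.24 for Ctrb1, -0.21 to 0.25 for Gcg and -0.39 to 0.0106 for Cdyl2. No paired analysis was possible because the groups share no replicate number. Depth limits Adgre1, Ciita, Lyz2 and Lbp in the controls.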
